A study of Mus musculus with 20 samples.

Results

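Messenger RNA of the respiratory chain and the ATP synthase was compared between adult retina and newborn cortex of the mouse. Members were taken by gene symbol from the platform annotation: the Nduf, Sdha to Sdhd (with their assembly factors), Uqcr, Cyc1, Cycs, Cyct, Cox4 to Cox8, Cox10 to Cox19, Atp5 and Surf1 names. This gave 68 of the 9230 genes named on the array, 1 probe per gene, and 66 of them had enough values to be tested. By class the 68 members were 22 subunits named for complex I (20 of them tested), 4 of complex II and 3 of complex III. There were also 2 forms of cytochrome c, 15 subunits named for complex IV and 12 of the ATP synthase. The other members were 4 assembly factors of complex I, 2 of complex II and 4 of complex IV.

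The RNA came from 2 pools, one of retina from adult C57/B6 mice and one of cortex from Swiss-Webster pups at postnatal day 1. Each pool was measured on 5 replicate arrays at a first site and on 5 at a second site, labelled site 2, so the 20 arrays formed 4 groups of 5. The platform was the CodeLink bioarray, a 1-colour array that was hybridised with biotin-labelled RNA, and it gives 1 intensity for each probe. Tissue, strain and age changed together between the pools, and their parts in any difference cannot be told apart. Replicates of a group were aliquots of 1 pool, so the p-values below measure technical spread only and not the spread between animals. What differed between the sites is not given in the sources used here. In RNA from whole tissue, fewer cells of a type and less RNA per cell also cannot be told apart.

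Cells oxidise fuel in mitochondria by passing electrons along a chain of membrane complexes. Complex I takes electrons from NADH and complex II takes them from succinate, both hand them to ubiquinone, and complex III and cytochrome c carry them on to complex IV, which reduces oxygen. The proton gradient that the chain builds drives the ATP synthase. Photoreceptors of the adult retina hold dense packs of mitochondria in their inner segments, whereas the cortex of a newborn mouse is still rich in young neurons and dividing cells. Several complex IV subunits exist as pairs of genes, of which one is used in nearly every tissue and the other mainly in muscle, lung or testis.

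The labelled tissues matched their markers. All 6 tested photoreceptor markers (such as Rcvrn and Gnat2) were at least 2-fold higher in retina at both sites, and all 6 newborn cortex markers (such as Sox11 and Neurod6) were at least 2-fold lower. The array medians lay between 0.927 and 0.963 and no pair of arrays held identical values. The scale of the intensities is arbitrary, so the tissue and site differences were taken within a probe. Levels of different probes entered the summed marker intensities, the choice of bright probes and the limit for dim values. Bright probes weigh most in such sums. Of the 1360 member values, 25 were blank and 0 were at or below 0.

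Most members differed little between the tissues. At the first site 63 of 66 members lay within 2-fold, a share of 95.5% against 74.4% of all 10339 tested probes, and at site 2 this held for 61 of 66, or 92.4% against 74.1%. The median absolute log2 difference over the members was 0.18 at the first site and 0.24 at site 2, where all probes had 0.50 and 0.53. Replicate arrays also spread less over the members: the median within-group SD of log2 ran from 0.10 to 0.18 for the members and from 0.16 to 0.23 for all probes. Of the 66 members, 57 were among the 2585 brightest tested probes, and the part of brightness in this spread was not tested. Both sites gave a like order of genes, with a Pearson r of 0.96 across the 66 members, and 0.84 over 63 members without Cox8b, Cox4i2 and Cox7a1. This r is a description across genes, since the genes share their arrays and are not independent.

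With limma and Benjamini-Hochberg adjustment over all probes, 19 members were higher and 9 lower in retina at the first site at an adjusted p below 0.05, against a background of 28.6% of all probes higher and 31.3% lower. The 28 called members were 42.4% of those tested, below the 59.9% of all probes called in either direction. At site 2 the members split into 18 higher and 15 lower, together 33 of 66, with 28.4% and 32.1% of all probes called in those directions and 60.4% in either. Among the 2585 brightest tested probes, 35.9% were higher and 34.6% lower at the first site, beside 16 and 7 of the 57 members there. For site 2 these shares were 38.3% and 33.8%, beside 15 and 12 members. After quantile normalization the first-site split was 17 higher and 17 lower and that of site 2 was 20 and 19. The median member difference was 0.043 at the first site and 0.034 at site 2 (all probes, -0.035 and -0.050), and it turned to -0.057 and -0.0067 after quantile normalization, so no common direction held for the members. The count of lower members at site 2 rose from 15 to 23 when cortex replicate 5 of site 2 was left out, and the median then was -0.037. This array held the lowest cortex value of site 2 for most members. Without that array, which also enters the error estimate of the first site, the first site had 22 members higher and 12 lower.

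Only a few members passed 2-fold. At the first site these were Cox8b, Cox4i2 and Cox7a1, all higher in retina, and at site 2 Sdha and Sdhaf4 passed too. Across all probes 24.9% and 24.6% were called at 2-fold, of which 11.9% and 11.1% were higher. Of the 2585 brightest tested probes, 21.0% and 22.1% were called at 2-fold. With limma, 0 members were 2-fold lower at either site, also at an unadjusted p below 0.05, whereas 13.0% and 13.5% of all probes were. At both sites 16 members were higher, or 24.2% of those tested against 23.3% of all probes, and 7 were lower, or 10.6% against 26.1%. Those lower at both sites were Cox5a, Cox6b1, Ndufaf2, Ndufaf7, Ndufs4, Sdhb and Sdhd. The 5 retina arrays lay wholly above the 5 cortex arrays for 17 members at the first site and 15 at site 2 (all probes, 26.2% and 24.0%), and wholly below for 8 and 8 (27.1% and 24.2%).

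**Figure D1:**
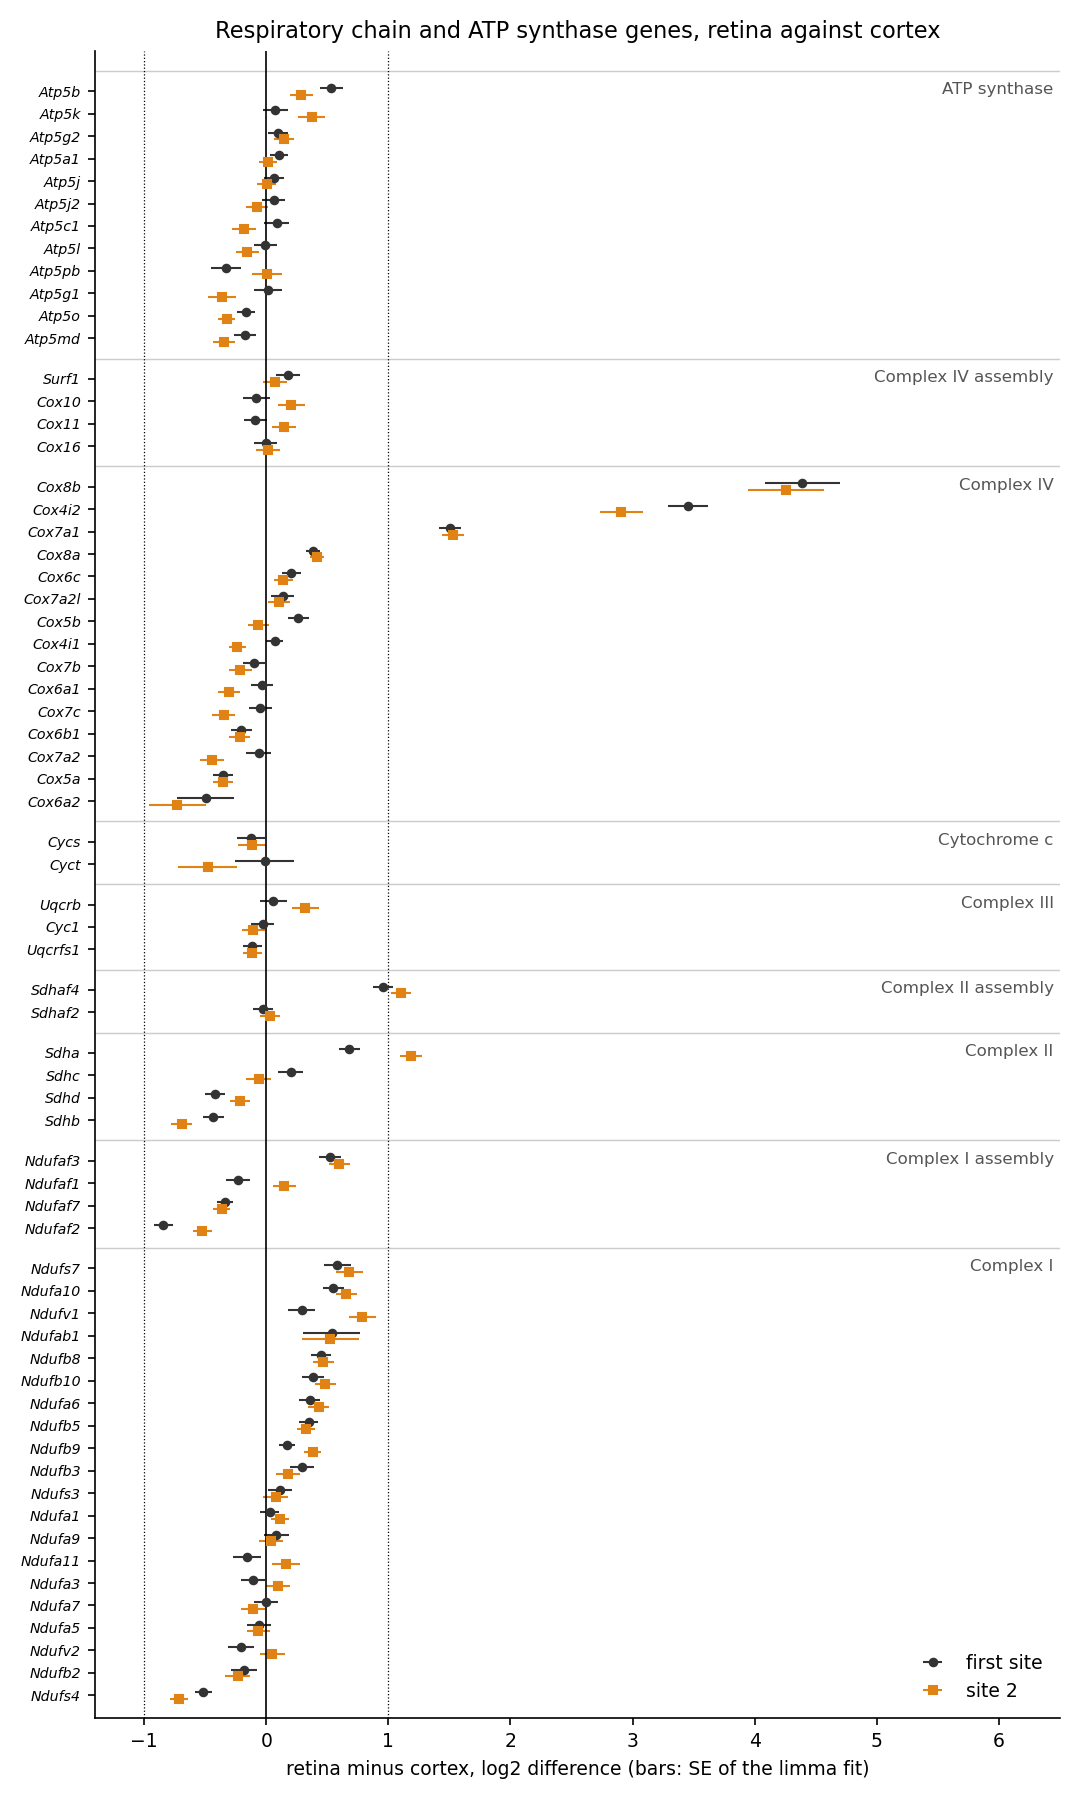
Retina minus cortex as a log2 difference for each of the 66 tested members, grouped by complex, with the standard error of the limma fit as bars, for the first site (black circles) and site 2 (orange squares). Dotted lines mark 2-fold, and Cox8b, Cox4i2 and Cox7a1 stand to the right of it at both sites while most other members lie close to 0.

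The largest differences were those of Cox8b, Cox4i2 and Cox7a1, which are tissue-restricted subunits of complex IV. Cox8b, the heart and skeletal muscle form of subunit 8, exceeded its cortex level 21.00-fold in first-site retina and 19.1-fold in that of site 2. Cox4i2, a form of the regulatory subunit 4 known from lung and oxygen-sensing cells, was 10.95-fold and 7.50-fold higher. Cox7a1, the muscle form of subunit 7a, was 2.84-fold and 2.89-fold higher. Their partners of wide use, Cox8a, Cox4i1 and Cox7a2, stayed within 2-fold at both sites. In all, complex IV had 6 of 15 members higher and 2 lower at the first site, and 4 higher and 7 lower at site 2, where all probes gave 28.6% higher and 31.3% lower at the first site and 28.4% and 32.1% at site 2. Median differences were 0.069 and -0.21. After quantile normalization the first-site split was 5 higher and 4 lower with a median of -0.015, so no direction is given for the class.

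Values per array are given in the order of replicates 1 to 5. On the retina arrays Cox8b read 2.51, 3.00, 2.86, 2.82 and 2.59 at the first site and 2.09, 1.88, 1.84, 2.08 and 1.90 at site 2. On the cortex arrays it read 0.120, 0.135, 0.149, 0.151 and 0.106 at the first site and 0.0622, 0.0948, 0.0942, 0.335 and 0.0604 at site 2. Every retina array was above every cortex array of its site, and cortex replicate 4 of site 2 was the highest of the cortex arrays. The log2 difference was 4.39 (SE 0.31, adjusted p = 3.03e-10) and 4.26 (SE 0.31, adjusted p = 5.04e-10). All but 1 of the cortex values were under 0.194, the 25th percentile of all intensities, and with values raised to that floor the folds were 14.2 and 9.03, so the size of the fold rests on dim values. Cox8a, which holds the same place in the enzyme in most tissues, gave 46.99, 41.6, 42.3, 39.6 and 41.6 on retina arrays of the first site and 35.8, 37.7, 33.3, 35.1 and 32.8 on those of site 2. Its cortex arrays gave 32.3, 31.8, 33.9, 31.7 and 33.2 at the first site and 26.95, 25.7, 26.5, 25.8 and 26.1 at site 2. The retina arrays were again all above the cortex arrays, by a much smaller step of 0.38 on the log2 scale (SE 0.057, adjusted p = 9.97e-06) and 0.41 (SE 0.057, adjusted p = 3.50e-06).

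Cox4i2 read 2.43, 2.02, 2.08, 2.19 and 2.12 in retina at the first site and 1.85, 2.03, 1.70, 1.92 and 2.01 at site 2. In cortex it read 0.180, 0.198, 0.237, 0.195 and 0.183 at the first site and 0.197, 0.266, 0.427 and 0.183 at site 2, where replicate 3 was blank and was left out of the fit. The groups did not overlap at either site, with differences of 3.45 (SE 0.17, adjusted p = 2.42e-12) and 2.91 (SE 0.18, adjusted p = 7.15e-11). Its partner Cox4i1 read 52.3, 46.4, 45.3, 49.1 and 53.3 in retina and 41.7, 45.00, 48.7, 51.2 and 48.5 in cortex at the first site. At site 2 it read 50.1, 49.2, 49.1, 55.2 and 51.1 in retina and 58.7, 59.1, 62.8, 54.98 and 64.7 in cortex. The Cox4i1 groups overlapped at both sites, and the difference was 0.069 (adjusted p = 0.428) at the first site and -0.24 (adjusted p = 0.00703) at site 2.

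Cox7a1 gave 1.18, 1.06, 1.16, 1.12 and 1.43 on the first-site retina arrays and 0.906, 0.824, 0.914, 0.980 and 0.875 on those of site 2. In cortex its values were 0.413, 0.398, 0.415, 0.426 and 0.432 at the first site and 0.309, 0.298, 0.310, 0.385 and 0.265 at site 2. All retina values were above all cortex values, with differences of 1.51 (SE 0.091, adjusted p = 3.00e-11) and 1.53 (SE 0.091, adjusted p = 2.53e-11). Cox7a2, the form found in most tissues, gave 53.4, 43.1, 43.1, 47.1 and 44.8 in retina and 45.5, 46.3, 47.9, 53.5 and 48.4 in cortex at the first site, where the groups overlapped. At site 2 it gave 28.5, 26.2, 25.5, 30.8 and 33.2 in retina and 36.6, 39.9, 37.4, 33.7 and 49.4 in cortex, with every retina array below every cortex array of its site. The differences were -0.064 (adjusted p = 0.614, or -0.19 and 0.0477 after quantile normalization) and -0.45 (adjusted p = 7.04e-04). Cox7a2l, a relative of these that links complexes III and IV into supercomplexes, read 24.8, 23.7, 24.4, 26.02 and 24.99 in retina and 23.6, 18.7, 24.4, 26.6 and 20.5 in cortex at the first site. At site 2 its values were 29.5, 27.8, 29.7, 29.8 and 30.2 in retina and 29.2, 29.6, 29.9, 26.4 and 22.5 in cortex. The Cox7a2l groups overlapped and neither difference passed (0.13 and 0.10, adjusted p = 0.225 and 0.345).

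Cox6a2, the muscle form of subunit 6a, did not share the direction of the other restricted forms. It read 1.08, 1.09, 0.999, 1.06 and 0.968 in retina and 1.12, 1.51, 1.47, 1.66 and 1.64 in cortex at the first site. At site 2 it read 1.06, 0.783, 1.05, 1.02 and 1.02 in retina and 1.23, 1.36, 1.29, 1.32 and 3.92 in cortex, where replicate 5 stood far above the other arrays. Each retina array was below each cortex array of its site. The first-site difference of -0.50 had an adjusted p of 0.0765 and passed without cortex replicate 1 of the first site (0.0466), without cortex replicate 5 of site 2 (2.78e-04) and in a fit of both first-site groups alone (0.00195), and that of site 2, -0.73, had an adjusted p of 0.0114. Without cortex replicate 5 the site 2 difference was -0.41 (adjusted p = 0.00254), and in a fit of both site 2 groups alone the full difference had an adjusted p of 0.0591. Cox6a1, the form of wide use, gave 77.1, 65.8, 68.6, 71.8 and 57.2 in retina and 69.01, 69.8, 75.2, 66.2 and 67.1 in cortex at the first site. On site 2 arrays it gave 64.3, 68.6, 65.05, 65.2 and 72.7 in retina and 81.04, 90.03, 86.1, 94.4 and 66.5 in cortex. Its groups overlapped at both sites, with differences of -0.034 (adjusted p = 0.778) and -0.31 (adjusted p = 0.00693, or 0.112 after quantile normalization).

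**Figure D2:**
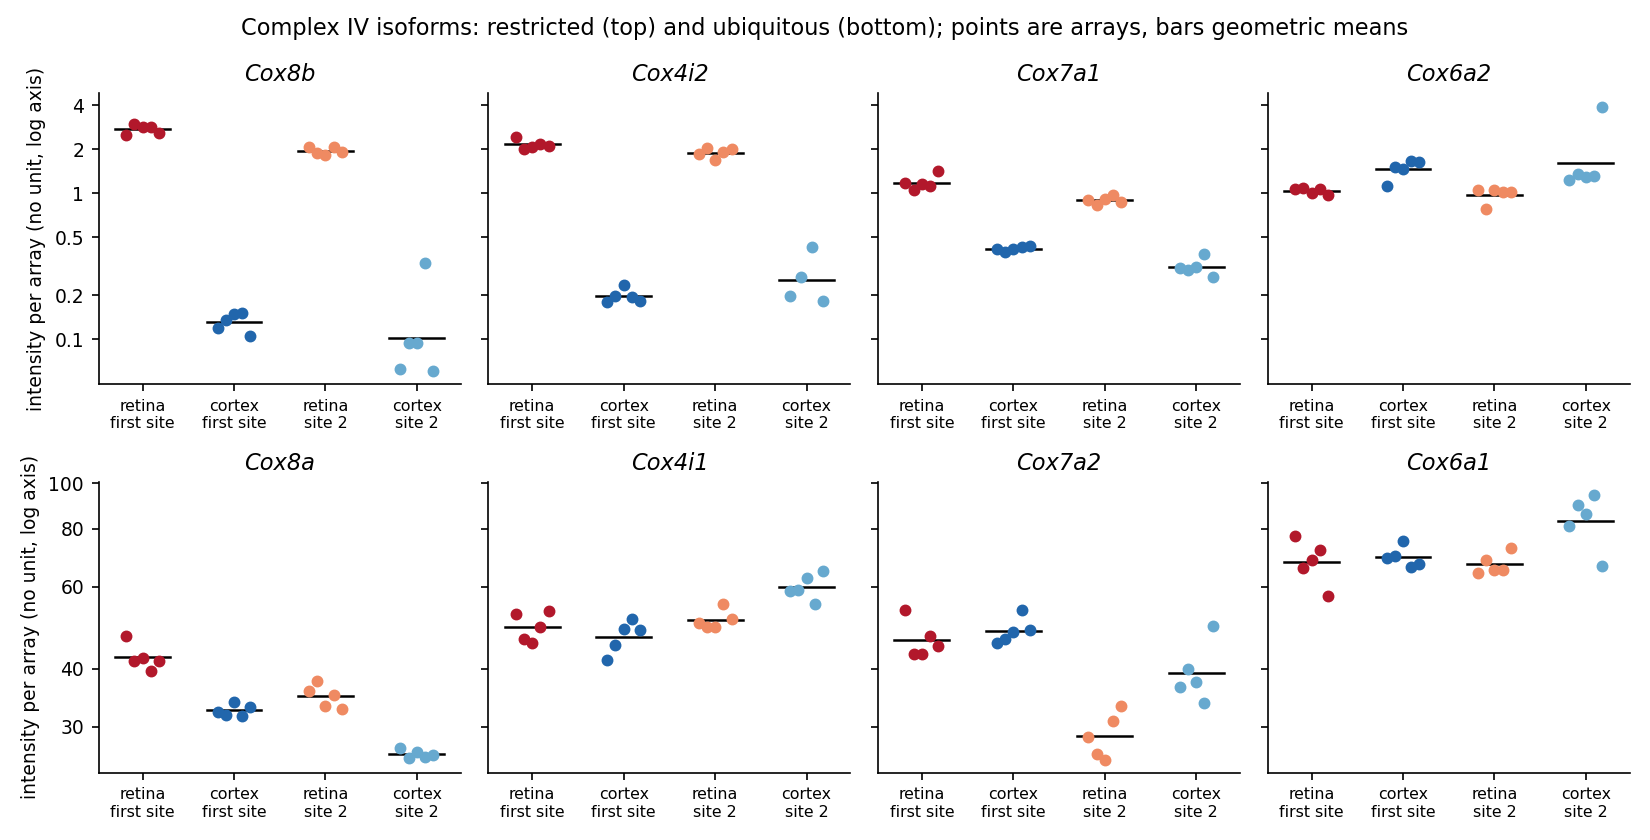
Intensity per array (log axis) of complex IV subunits with a restricted form (Cox8b, Cox4i2, Cox7a1, Cox6a2) above the form of wide use (Cox8a, Cox4i1, Cox7a2, Cox6a1) in the 4 groups of 5 arrays, with bars at geometric means. Cox8b, Cox4i2 and Cox7a1 are higher on every retina array than on every cortex array of the same site, Cox6a2 is lower, and the lower panels span a narrow range.

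Since Cox8b, Cox7a1 and Cox6a2 are muscle forms, muscle markers were read in the same arrays. Of 15 tested muscle markers 5 were higher and 4 lower in retina at the first site, and 5 and 3 at site 2, where 28.6% of all probes were higher and 31.3% lower at the first site and 28.4% and 32.1% at site 2. At 2-fold the first-site split was 3 higher and 2 lower and that of site 2 was 2 and 2. Of all probes 11.9% were higher and 13.0% lower at 2-fold at the first site, and 11.1% and 13.5% at site 2. Tnnt1, a slow muscle troponin, differed by 4.42 and 3.72, and Mylpf, a fast muscle myosin light chain, by 2.43 and 2.01. Ckm, muscle creatine kinase, was also higher (1.56 and 0.91), whereas Myh2, a muscle myosin heavy chain, and Acta1, skeletal actin, were lower (-1.65 and -1.64 for Myh2, -1.54 and -1.29 for Acta1). The summed intensity of the 15 markers was 8.30 to 8.73 in retina against 4.73 to 5.01 in cortex at the first site, and 6.83 to 7.64 against 4.76 to 5.27 at site 2. Myog, the myogenic regulator, had group means of 0.029 to 0.044, near the floor of the scale, and 0 of the 300 muscle marker values were at or below 0. All 5 tested markers of the retinal pigment epithelium were at least 2-fold higher in retina, with a summed intensity of 18.2 to 25.8 in retina against 1.90 to 3.40 in cortex over both sites. The part of muscle or pigment epithelium RNA in the isoform differences was not tested.

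The promoters of 2 isoform pairs were set side by side. Windows of 250 bases before the transcription start were read from RefSeq (GRCm38.p6) for 59 of the 68 members, in 64 windows, and those of Cox8b and Cox7a1 are set beside those of Cox8a and Cox7a2. The other restricted forms, Cox4i2 and Cox6a2, had no window, so nothing is said of restricted forms in general. CG pairs, the sites of DNA methylation, are in capitals, and each sequence runs in the direction of transcription.
Cox8b, chr7:140900447-140900696, minus strand: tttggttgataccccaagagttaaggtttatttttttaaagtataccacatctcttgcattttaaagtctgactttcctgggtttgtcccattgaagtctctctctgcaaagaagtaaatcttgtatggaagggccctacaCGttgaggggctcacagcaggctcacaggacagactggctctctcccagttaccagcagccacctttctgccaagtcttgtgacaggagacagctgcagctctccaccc
Cox8a, chr19:7217617-7217866, minus strand: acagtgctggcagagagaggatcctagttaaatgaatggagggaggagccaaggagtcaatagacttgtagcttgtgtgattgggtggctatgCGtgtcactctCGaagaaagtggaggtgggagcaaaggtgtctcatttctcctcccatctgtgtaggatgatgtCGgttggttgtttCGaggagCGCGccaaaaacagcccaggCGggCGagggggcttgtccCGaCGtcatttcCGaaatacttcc
Cox7a1, chr7:30183921-30184170, plus strand: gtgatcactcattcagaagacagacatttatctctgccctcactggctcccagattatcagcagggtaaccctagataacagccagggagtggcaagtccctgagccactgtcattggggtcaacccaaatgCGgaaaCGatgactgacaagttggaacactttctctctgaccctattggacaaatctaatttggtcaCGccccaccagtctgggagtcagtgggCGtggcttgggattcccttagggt
Cox7a2, chr9:79759854-79760103, minus strand: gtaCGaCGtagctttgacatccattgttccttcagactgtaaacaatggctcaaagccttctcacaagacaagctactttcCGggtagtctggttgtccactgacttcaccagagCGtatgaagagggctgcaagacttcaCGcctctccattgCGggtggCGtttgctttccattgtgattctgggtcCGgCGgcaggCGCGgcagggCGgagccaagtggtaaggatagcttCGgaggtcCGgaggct
The Cox8b window held 1 CG pair and that of Cox7a1 held 4, against 11 for Cox8a and 14 for Cox7a2. The Cox8b and Cox7a1 windows were the lowest of the member windows, followed by Cox7b with 5 and Cyct with 6. At a limit set to the Cox7a1 count, 2 of 64 member windows had 4 or fewer, or 3.12%, where 44.4% of 32851 windows of all genes did. The median was 16 CG pairs over the member windows and 6 over all windows.

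Short motifs were counted on either strand of the same windows. A core of the NRF1 site, which an activator of many respiratory genes reads, spelled GCGCATGC, was found in 8 of 64 member windows (Atp5g2, Atp5k, Atp5l, Cox6a1, Cycs, Ndufa11, Ndufa6 and Sdhb), or 12.5% against 2.26% of all windows. A core of ETS factors such as GABP, spelled CCGGAAG, was in 11 member windows, or 17.2% against 6.91%. The YY1 core AAGATGGC was in 1 of 64, that of Atp5j, the same share of 1.56% as in all windows. An E-box of the kind bound by myogenic factors, CAGCTG, was in 4 windows (Atp5b, Cox8b, Ndufb10 and Ndufv2), or 6.25% against 13.0%. No one of these strings contains another, and they are matches of letters and not measured binding sites. GCGCATGC and CCGGAAG hold a CG pair, whereas AAGATGGC and CAGCTG hold none. Member windows had a median of 16 CG pairs against 6 in all windows, and the part of this in the shares was not tested.

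Complex II, which ties the chain to the citric acid cycle, split between its subunits. Sdha, the flavoprotein that oxidises succinate, was higher in retina at both sites, whereas Sdhb, its iron-sulfur partner, was lower at both. Sdhd, a membrane anchor, was also lower at both, but its call at site 2 was lost in several other fits. Sdhaf4, which helps the flavin-loaded Sdha join Sdhb, was higher in retina by 1.94-fold and 2.14-fold. Sdhc, the other anchor, and Sdhaf2, which inserts the flavin, did not pass at either site. Sdhc passed at the first site (0.20, adjusted p = 0.0372) without cortex replicate 5 of site 2.

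Sdha read 38.7, 34.2, 30.7, 32.8 and 37.4 in retina and 21.5, 18.9, 23.99, 22.2 and 21.8 in cortex at the first site. At site 2 it read 66.9, 64.2, 66.4, 64.00 and 77.5 in retina and 32.8, 32.2, 30.9, 27.1 and 26.3 in cortex. Retina was above cortex without overlap at both sites, and the retina arrays of site 2 were above all others. The difference was 0.68 (SE 0.088, adjusted p = 1.52e-06) at the first site and 1.19 (SE 0.088, adjusted p = 6.56e-10) at site 2, or 0.97, under 2-fold, after quantile normalization. Sdha was the only member whose tissue difference differed between the sites, by 0.50 (SE 0.12, adjusted p = 0.0298), where 3.98% of all probes did. That call was lost in 6 of 20 fits without 1 array, with adjusted p-values from 0.0525 to 0.0591: without retina replicate 2, 3 or 4 or cortex replicate 3 of the first site, and without retina replicate 5 or cortex replicate 4 of site 2. It was also lost in the fit with the replicate number as a block.

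Sdhb ran the other way, with 33.1, 32.97, 34.2, 31.3 and 29.03 in retina and 37.5, 41.3, 41.3, 51.1 and 46.4 in cortex at the first site. On site 2 arrays it gave 24.6, 21.4, 20.97, 23.7 and 26.2 in retina and 37.98, 39.1, 39.4, 39.4 and 32.8 in cortex. Every retina array was below every cortex array of its site, with differences of -0.43 (SE 0.088, adjusted p = 2.95e-04) and -0.69 (SE 0.088, adjusted p = 1.26e-06). Sdhaf4 gave 11.3, 11.2, 10.6, 11.3 and 10.3 in retina and 5.06, 5.47, 5.49, 6.42 and 5.77 in cortex at the first site. At site 2 the values were 8.16, 7.75, 7.73, 8.37 and 9.42 in retina and 3.95, 3.95, 3.64, 4.44 and 3.37 in cortex. Here all retina arrays were higher, with differences of 0.96 (SE 0.081, adjusted p = 4.39e-09) and 1.10 (SE 0.081, adjusted p = 5.78e-10). For Sdhd, retina ranged from 14.6 to 17.5 and cortex from 20.4 to 22.9 at the first site, without overlap (difference -0.42, adjusted p = 1.84e-04). At site 2 the Sdhd groups overlapped, at 9.98 to 11.8 and 10.4 to 13.9 (difference -0.21, adjusted p = 0.0298). This second call was lost after median centring (-0.19, adjusted p = 0.0571), in a fit of both site 2 groups alone (0.0809) and in 6 of 20 fits without 1 array (0.0558 to 0.0831), namely cortex replicate 1, 2, 3 or 4 or retina replicate 2 or 5 of site 2.

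**Figure D3:**
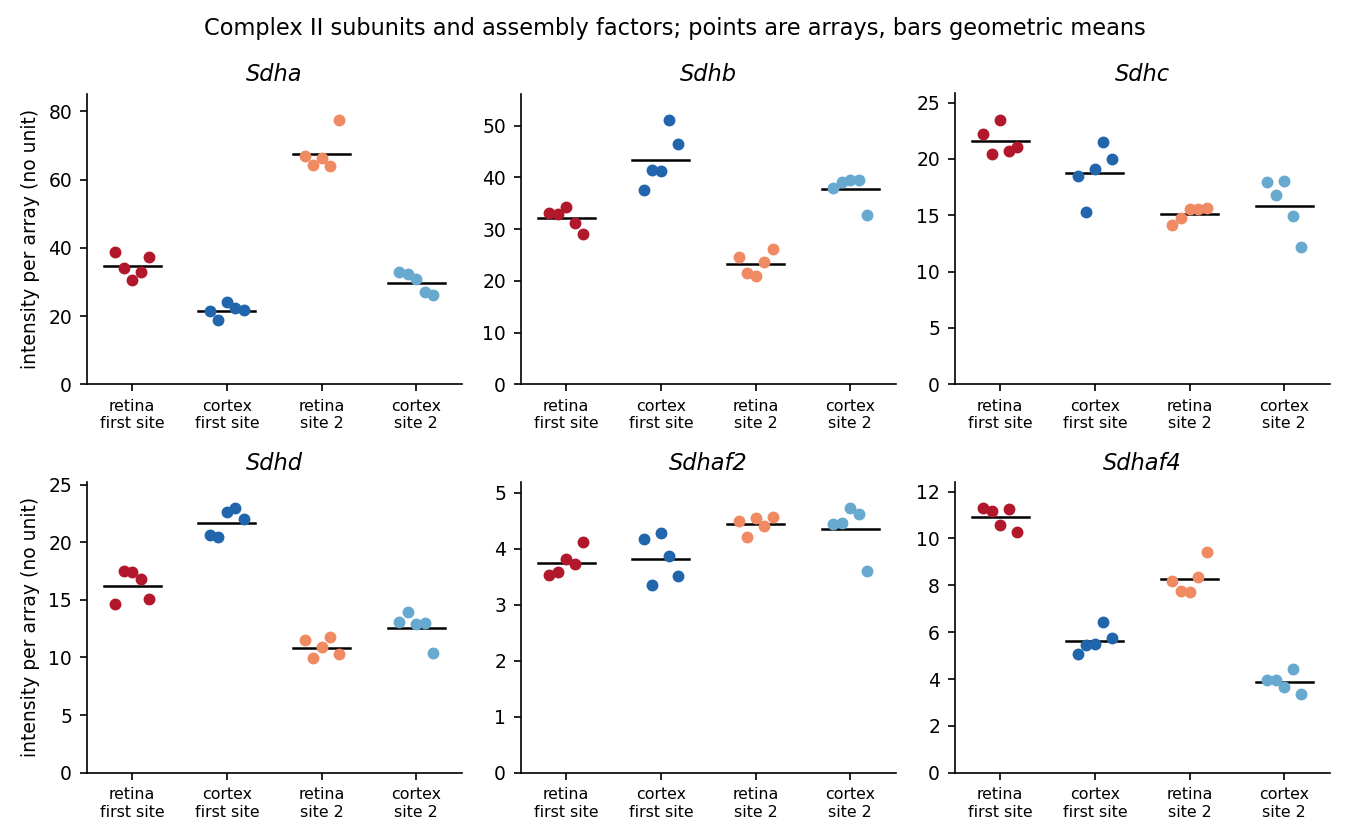
Intensity per array of the 4 complex II subunits and 2 assembly factors in the 4 groups of 5 arrays, each panel on its own linear axis from 0, with bars at geometric means. At each site Sdha and Sdhaf4 are higher, and Sdhb is lower, on every retina array than on every cortex array, and Sdhc and Sdhaf2 overlap.

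Complex I, the entry point for NADH, had 9 of its 20 tested subunits higher and 1 lower in retina at the first site, where all probes gave 28.6% and 31.3%. At site 2 it had 8 higher and 1 lower, where all probes gave 28.4% and 32.1%. After quantile normalization the split was 8 and 3 at the first site and 9 and 2 at site 2, with medians of 0.070 and 0.12 in place of 0.14 and 0.17. Without cortex replicate 5 of site 2 the lower subunits were 2 at each site. Those higher at both sites were Ndufs7, Ndufa10, Ndufv1, Ndufb8, Ndufb10, Ndufa6, Ndufb5 and Ndufb9. Ndufb3 was higher at the first site (0.29, adjusted p = 0.0129) and read 0.18 (adjusted p = 0.121) at site 2. The single lower subunit was Ndufs4 at both sites.

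Ndufs7 carries the iron-sulfur cluster that hands electrons to ubiquinone. It read 23.9, 25.8, 28.5, 24.8 and 22.6 in retina and 16.05, 16.1, 17.9, 18.2 and 15.6 in cortex at the first site. At site 2 it read 22.4, 21.99, 20.8, 23.4 and 21.6 in retina and 14.8, 14.4, 14.7, 16.3 and 9.61 in cortex. All retina arrays were above all cortex arrays, and the difference was 0.58 (SE 0.11, adjusted p = 1.40e-04) and 0.68 (SE 0.11, adjusted p = 2.51e-05). Ndufv1, which binds NADH and the flavin, differed by 0.29 (adjusted p = 0.0301) with overlap at the first site and by 0.79 (adjusted p = 4.46e-06) without overlap at site 2. The first-site call of Ndufv1 was lost after quantile normalization (0.22, adjusted p = 0.102), in a fit of the first-site groups alone (0.0544) and without retina replicate 3 or 5 or cortex replicate 2 or 5 of that site (0.055 to 0.097). Ndufa10, an accessory subunit, differed by 0.55 and 0.66 (adjusted p = 1.72e-05 and 1.87e-06). The accessory subunits Ndufb8, Ndufb10, Ndufa6, Ndufb5 and Ndufb9 lay between 0.17 and 0.45 at the first site and between 0.33 and 0.48 at site 2, and for all 5 the retina and cortex arrays did not overlap. The first-site call of Ndufb9 (adjusted p = 0.0369) was lost after quantile normalization (0.13, adjusted p = 0.124) and in 7 of 20 fits without 1 array (0.0504 to 0.0996), namely retina replicate 1, 2, 3 or 4 or cortex replicate 1, 3 or 4 of that site.

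Ndufs4 is an accessory subunit whose loss gives a mouse model of Leigh syndrome. It read 17.3, 15.2, 16.4, 16.1 and 16.8 in retina and 25.4, 20.4, 23.3, 23.9 and 24.2 in cortex at the first site. At site 2 the values were 11.6, 10.7, 11.3, 12.9 and 12.3 in retina and 20.3, 18.8, 19.4, 17.6 and 20.4 in cortex. Every retina array was below every cortex array of its site, with differences of -0.52 (SE 0.071, adjusted p = 3.32e-06) and -0.71 (SE 0.071, adjusted p = 4.30e-08). Another 10 subunits did not pass at either site: Ndufa1, Ndufa3, Ndufa5, Ndufa7, Ndufa9, Ndufa11, Ndufab1, Ndufb2, Ndufs3 and Ndufv2. Of these Ndufab1, the mitochondrial acyl carrier protein, had the largest differences, 0.54 and 0.53 (adjusted p = 0.0550 and 0.0601). Its probe was dim, at 0.147 to 0.480 over all arrays, with some cortex values under 0.194, the 25th percentile of all intensities. Several of the 10 passed after quantile normalization: Ndufab1 as higher at both sites (0.63 and 0.83, adjusted p = 0.0262 and 0.00446), Ndufb2 as lower at both (-0.24 and -0.32, adjusted p = 0.0165 and 0.00215) and Ndufv2 as lower at the first site (-0.34, adjusted p = 0.00512). Ndufb2 also passed at both sites without cortex replicate 5 of site 2 (-0.18 and -0.36, adjusted p = 0.0166 and 1.17e-04). Ndufab1 passed as higher in 4 of 20 fits without 1 array at the first site (0.00774 to 0.0317) and in 2 at site 2 (0.0078 to 0.0339). Ndufv2 passed as lower in 2 such fits at the first site (0.0309 to 0.0414).

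A pair of members named for complex I could be compared at 1 site only. Ndufa4, now known as a subunit of complex IV, was blank on all 10 first-site arrays. Site 2 gave 112, 111, 107, 104 and 151 in retina and 79.3, 78.4, 72.1, 63.9 and 60.98 in cortex, 1.64-fold higher in retina without overlap (log2 difference 0.71, SE 0.12, n = 5 and 5, two-sided exact permutation p = 0.00794, the smallest this design allows, 0.0159 adjusted over 2 tests). Ndufc1, a small membrane subunit, was blank on all 10 arrays of site 2. At the first site it read 5.19, 5.17, 4.58, 5.49 and 5.70 in retina and 4.32, 4.14, 3.97, 5.03 and 3.74 in cortex, 1.23-fold higher in retina with overlap (log2 difference 0.30, SE 0.090, n = 5 and 5, two-sided exact permutation p = 0.0159, also 0.0159 adjusted).

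The 4 assembly factors of complex I differed in direction. Ndufaf2, which binds a late assembly intermediate, read 2.38, 2.30, 2.14, 2.57 and 2.26 in retina and 3.83, 4.10, 4.30, 4.39 and 4.25 in cortex at the first site. Readings at site 2 were 1.62, 1.71, 1.497, 1.73 and 1.76 in retina and 2.49, 2.46, 2.40, 2.65 and 1.99 in cortex. Retina was below cortex on every array of its site, with differences of -0.84 (SE 0.078, adjusted p = 1.45e-08) and -0.52 (SE 0.078, adjusted p = 8.78e-06). Ndufaf3, an early assembly factor, gave 7.81, 8.83, 9.91, 8.72 and 7.97 in retina and 5.70, 6.02, 5.94, 6.49 and 5.92 in cortex at the first site. On site 2 arrays it gave 6.91, 6.30, 6.32, 7.11 and 6.16 in retina and 4.47, 4.56, 4.36, 4.94 and 3.45 in cortex. Here retina was above cortex on every array of its site, with differences of 0.52 (SE 0.089, adjusted p = 4.37e-05) and 0.60 (SE 0.089, adjusted p = 8.28e-06). Ndufaf7, a methyltransferase that modifies a core subunit, was lower without overlap (-0.34 and -0.37, adjusted p = 2.05e-04 and 1.72e-04). Ndufaf1 was just past the threshold at the first site (-0.23, adjusted p = 0.0452) and at site 2 read 0.15 (adjusted p = 0.194). Its first-site call was lost in a fit of the first-site groups alone (0.0529) and in 12 of 20 fits without 1 array (0.0506 to 0.117), namely retina replicate 1, 2, 3 or 4 or cortex replicate 1, 3 or 4 of the first site and retina replicate 1, 3 or 4 or cortex replicate 2 or 3 of site 2.

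Complex III and cytochrome c gave few calls. Of the 3 complex III members only Uqcrb, a small subunit near the quinone site, passed, and only at site 2. Uqcrb read 55.4, 42.9, 47.6, 50.9 and 50.8 in retina and 43.7, 39.1, 47.8, 56.8 and 51.2 in cortex at the first site. Its site 2 readings were 52.4, 53.2, 56.7, 56.7 and 64.8 in retina and 53.3, 50.3, 46.1, 40.5 and 38.1 in cortex. The groups overlapped at both sites, with differences of 0.059 (adjusted p = 0.678) and 0.32 (SE 0.11, adjusted p = 0.0172), and the second call was lost without retina replicate 5 of site 2 (0.27, adjusted p = 0.0512). Uqcrfs1, the Rieske iron-sulfur protein, gave 26.3, 23.9, 23.3, 25.9 and 24.7 in retina and 27.5, 22.4, 28.9, 28.3 and 27.95 in cortex at the first site. At site 2 the values were 26.98, 24.9, 27.2, 26.6 and 27.2 in retina and 30.9, 29.5, 29.9, 29.5 and 24.5 in cortex. Its groups overlapped and neither difference passed (-0.12 and -0.11, adjusted p = 0.210 and 0.212), and Cyc1, cytochrome c1, was at -0.029 and -0.11 without passing. These calls moved with the processing. After quantile normalization Uqcrfs1 was lower at both sites (-0.24 and -0.17, adjusted p = 0.00275 and 0.0279) and Cyc1 at site 2 (-0.19, adjusted p = 0.0235). Without cortex replicate 5 of site 2, the array that read low for Uqcrfs1, both were lower at site 2 (-0.17 and -0.20, adjusted p = 0.0355 and 0.0218), so all 3 members were called there, and Uqcrfs1 was lower at the first site without cortex replicate 2 of that site (-0.18, adjusted p = 0.0314).

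Cycs, the cytochrome c of body cells, read 34.6, 34.8, 29.3, 32.9 and 30.3 in retina and 30.9, 34.6, 33.8, 39.6 and 37.8 in cortex at the first site. Site 2 gave 19.3, 22.2, 18.4, 21.4 and 21.9 in retina and 21.2, 27.3, 26.04, 22.7 and 16.4 in cortex. The tissues overlapped at both sites (differences -0.12 and -0.12, adjusted p = 0.374 and 0.385). After quantile normalization the first-site difference was -0.25 and passed (adjusted p = 0.0219), and without cortex replicate 5 of site 2 that of site 2 was -0.23 and passed (0.037). Cyct, the testis form, gave 0.0431, 0.0478, 0.0400, 0.0560 and 0.0443 in retina and 0.0384, 0.0453, 0.0812, 0.0486 and 0.0312 in cortex at the first site. On site 2 arrays it gave 0.0486, 0.0438, 0.0302, 0.0629 and 0.0327 in retina and 0.0643, 0.0683, 0.0810, 0.0469 and 0.0420 in cortex. All of these are under 0.194, the 25th percentile of all intensities, and the tissues overlapped (-0.014 and -0.48, adjusted p = 0.968 and 0.0944). The site 2 difference passed without cortex replicate 5 (-0.60, adjusted p = 0.0427) or retina replicate 4 (-0.63, 0.0335) of that site.

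The remaining subunits of complex IV differed by small steps. Cox5a, which sits on the matrix side, was lower at both sites (-0.36 and -0.36, adjusted p = 9.90e-04 and 9.96e-04), and so was Cox6b1, on the outer side (-0.20 and -0.22, adjusted p = 0.0431 and 0.0312). Both Cox6b1 calls were close to the threshold. The first-site call was lost in 11 of 20 fits without 1 array (0.0505 to 0.107), namely retina or cortex replicate 2, 3, 4 or 5 of the first site and retina replicate 1 or 4 or cortex replicate 3 of site 2. That of site 2 was lost without retina replicate 2 or 3 or cortex replicate 2, 3 or 4 (0.0562 to 0.0947), after median centring (0.0546) and in a fit of the site 2 groups alone (0.0883). Cox5b, the zinc-binding subunit, was higher at the first site (0.26, adjusted p = 0.0140, or 0.13 and 0.114 after quantile normalization) and read -0.066 at site 2. Cox6c was higher at the first site (0.20, adjusted p = 0.0278), a call lost without cortex replicate 1 or 2 or retina replicate 1 of that site (0.0532 to 0.0874). At site 2 Cox6c read 0.14 (adjusted p = 0.122) and passed as higher after quantile normalization (0.15, adjusted p = 0.0303). Cox7c was lower at site 2 (-0.35, adjusted p = 0.00360). Cox7b passed at neither site (-0.10 and -0.21, adjusted p = 0.355 and 0.0519), but it passed as lower at the first site after quantile normalization (-0.22, adjusted p = 0.0445) and on site 2 arrays in 6 of 20 fits without 1 array (0.0176 to 0.045). None of the complex IV assembly factors passed with limma at either site: the heme and copper factors Cox10 and Cox11, Cox16 and Surf1 lay between -0.089 and 0.18 at the first site and between 0.013 and 0.21 at site 2. At an unadjusted p below 0.05 the count was 0 of 4 at both sites. Surf1 passed at the first site (0.18, adjusted p = 0.0398) without cortex replicate 5 of site 2.

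In the ATP synthase, 1 of 12 members was higher and 1 lower at the first site, and 2 were higher and 3 lower at site 2, where all probes gave 28.6% higher and 31.3% lower at the first site and 28.4% and 32.1% at site 2. After quantile normalization the first site had 3 lower members against 5 for site 2. Leaving out cortex replicate 5 of site 2 gave 2 and 5. Atp5b, the catalytic beta subunit, was the member higher at both sites. It read 39.4, 34.4, 32.6, 32.9 and 31.7 in retina and 24.1, 19.98, 25.1, 25.2 and 23.8 in cortex at the first site. Readings at site 2 were 26.2, 24.7, 23.7, 21.8 and 23.2 in retina and 19.1, 21.3, 21.9, 20.4 and 15.8 in cortex. The groups did not overlap at the first site and overlapped slightly at site 2, with differences of 0.53 (SE 0.093, adjusted p = 5.52e-05) and 0.29 (SE 0.093, adjusted p = 0.0120). Its partner in the catalytic head, Atp5a1, was at 0.10 and 0.016 (adjusted p = 0.248 and 0.864). Atp5md, a small membrane subunit, gave 43.04, 39.2, 35.00, 38.04 and 37.5 in retina and 39.7, 43.2, 43.1, 46.3 and 45.1 in cortex at the first site. At site 2 the values were 26.4, 27.1, 20.8, 26.8 and 29.2 in retina and 37.2, 33.3, 31.00, 34.5 and 29.2 in cortex. These groups overlapped or touched, and the difference was -0.17 (adjusted p = 0.102, or -0.29 and 9.29e-04 after quantile normalization) and -0.35 (SE 0.090, adjusted p = 0.00239).

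Atp5g1 and Atp5g2 encode the same mature c subunit of the membrane ring. Atp5g1 read 21.3, 17.7, 18.3, 14.3 and 15.2 in retina and 18.7, 14.2, 18.04, 14.8 and 20.2 in cortex at the first site, with overlap. Its site 2 readings were 12.8, 12.4, 10.95, 12.8 and 12.6 in retina and 16.6, 17.5, 15.7, 16.5 and 13.1 in cortex, and every retina array was below every cortex array of its site. The difference was 0.013 (adjusted p = 0.937) and -0.36 (adjusted p = 0.0113). Atp5g2 gave 31.3, 28.4, 26.6, 27.8 and 25.6 in retina and 25.95, 23.6, 26.2, 27.1 and 27.5 in cortex at the first site. Readings at site 2 were 31.5, 29.3, 32.2, 28.1 and 29.96 in retina and 28.96, 29.03, 28.4, 28.9 and 21.9 in cortex. Its groups overlapped at both sites (differences 0.098 and 0.15, adjusted p = 0.324 and 0.137). Atp5pb, the stalk subunit b, was lower at the first site (-0.33, adjusted p = 0.0306), a call lost in a fit of the first-site groups alone (0.0597) and without retina replicate 1, 2 or 3 or cortex replicate 1, 3 or 4 of that site (0.0539 to 0.0892). At site 2 Atp5o, which joins the stalk to the head, was lower (-0.33, adjusted p = 6.51e-04) and Atp5k, subunit e, was higher (0.37, adjusted p = 0.00625). At the first site Atp5o read -0.17 (adjusted p = 0.0516) and passed as lower after quantile normalization (-0.33, adjusted p = 5.97e-04). It also passed there in 7 of 20 fits without 1 array (0.0277 to 0.0496). The same held in a fit of the first-site groups alone (0.0324) and with dim values raised to the 25th percentile (0.0285).

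The same pools were also compared between sites. At site 2, 36 of 66 members were lower and 8 higher than at the first site in retina, and 31 were lower and 6 higher in cortex. The lower shares, 54.5% and 47.0%, stand against 24.2% and 23.7% of all probes, the higher shares against 22.5% and 23.1%, and the median changes of -0.30 and -0.24 against 0.023 and 0.082. After quantile normalization the splits were 29 lower and 14 higher in retina and 25 lower and 14 higher in cortex. Of all members 29 were lower in both tissues, or 43.9% against 17.9% of all probes. Members are bright: 57 of 66 were among the 2585 brightest tested probes, where 41.4% of probes were lower at site 2 in retina and 41.6% in cortex, beside 32 and 28 of those 57 members. The part of brightness in the site change was not tested further.

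The members with the largest site changes belong to several complexes. Atp5k fell by 1.13 on the log2 scale in cortex (adjusted p = 3.35e-07), the 1 member past 2-fold (7.21% of all probes), and by 0.83 in retina (adjusted p = 4.69e-06), where 0 members passed 2-fold with limma, also at an unadjusted p below 0.05 (6.24% of all probes). Its cortex arrays ranged from 41.8 to 50.1 at the first site and from 15.4 to 24.5 at site 2, with 1 value blank, and the 2-fold call was lost without cortex replicate 5 of site 2. Atp5l, subunit g, was lower in both tissues (-0.90 in retina and -0.75 in cortex). Ndufa6 and Ndufb8 were lower as well (-0.86 and -0.93 for Ndufa6, -0.80 and -0.82 for Ndufb8). Sdha, Atp5pb and Cox7a2l were the 3 members higher at site 2 in both tissues (13.5% of all probes were), Sdha by 0.96 in retina and 0.46 in cortex, Atp5pb by 0.76 and 0.42.

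**Figure D4:**
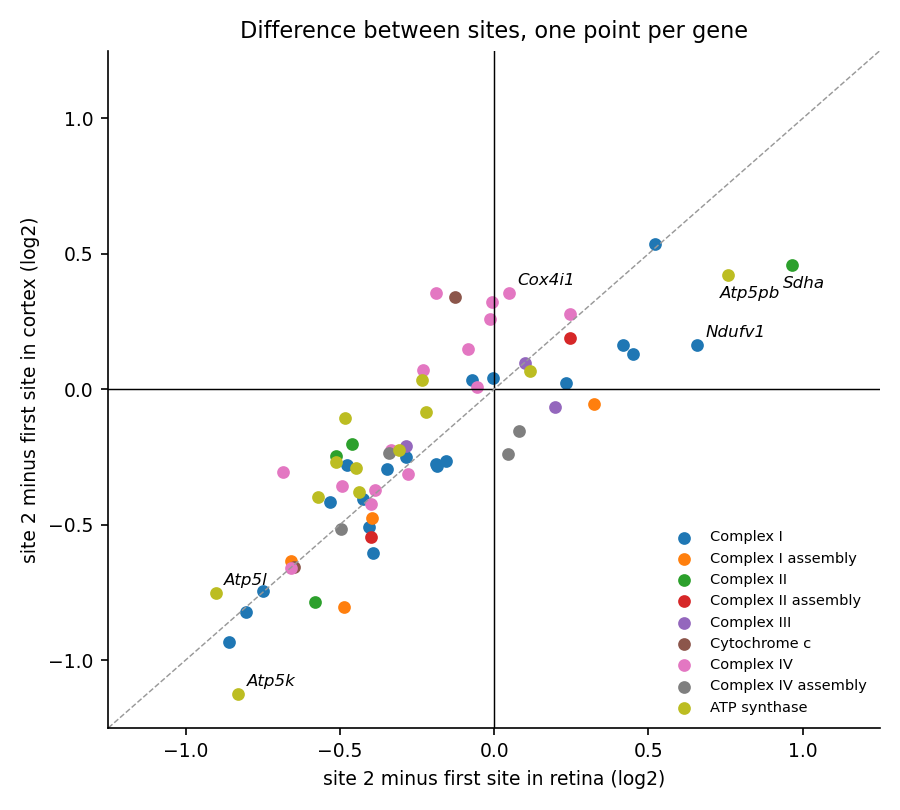
Site 2 minus first site as a log2 difference for each of the 66 tested members, retina on the x axis and cortex on the y axis, coloured by complex, with the dashed line at equal change. Most points lie in the lower left, with Atp5k and Atp5l far down, and Sdha and Atp5pb stand at the upper right.

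Lists of other mitochondrial genes were read in the same fits, in which 28.6% of all probes were higher and 31.3% lower at the first site, and 28.4% and 32.1% at site 2. The counts below stand beside those shares, and nothing particular to a list is read from them. Among 13 tested regulators of mitochondrial genes, 7 were higher and 2 lower in retina at the first site, and 5 and 3 at site 2. The coactivators Ppargc1b (3.33 and 3.23) and Ppargc1a (2.01 and 1.16), which switch on mitochondrial biogenesis, and Polg2, a subunit of the mitochondrial DNA polymerase (1.94 and 1.77), were at least 2-fold higher at both sites. Nrf1, which reads the GCGCATGC core counted above, was at 0.46 (adjusted p = 0.00525) and 0.29 (adjusted p = 0.0714), and Gabpa, the DNA-binding subunit of GABP, at 0.44 and 0.78 (adjusted p = 0.00878 and 5.98e-05). Tfam, which packs mitochondrial DNA, was at -0.13 (adjusted p = 0.269) and -0.27 (adjusted p = 0.0252).

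Of 18 carriers and energy shuttles, 9 were higher and 4 lower at the first site, and 11 and 4 at site 2. Ak4, a matrix adenylate kinase (2.21 and 2.13), and Ckmt1, the mitochondrial creatine kinase (1.57 and 1.33), were at least 2-fold higher at both sites, and Slc25a1, the citrate carrier, was lower (-2.23 and -2.07). Among 7 donors of electrons to ubiquinone and makers of it, 4 were higher and 2 lower at each site. Prodh, proline dehydrogenase, was higher (2.68 and 2.53) and Gpd2, the mitochondrial glycerol phosphate dehydrogenase, was lower (-1.62 and -2.83). Of 14 citric acid cycle genes, 3 were higher and 6 lower at the first site and 5 and 4 at site 2, with Idh2 as the member past 2-fold (-1.07 and -1.04).

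Genes that build the organelle were read in 3 more lists. Of 20 import factors and chaperones, 4 were higher and 12 lower at each site, with Timm44, a motor subunit of the inner membrane, among the higher (1.76 and 1.95) and Timm8a1, an intermembrane chaperone, among the lower (-1.16 and -1.08). Of 52 mitochondrial ribosomal proteins, 19 were higher and 14 lower at the first site and 21 and 9 at site 2, and Mrpl49 was the only one past 2-fold (1.28 and 1.23). Of 6 further assembly factors, 3 were higher and 2 lower at the first site and 2 and 2 at site 2. None of these lists was tested against the other probes or against each other.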

How the data were processed

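CodeLink arrays of 2 RNA pools at 2 sites were analysed from the intensities the authors deposited, 1 linear value per probe and array. Labels and files name no scanner software, background correction or scaling, so these are not given in the sources used. No further normalization was applied, because the array medians differed by 0.059 on the log2 scale, under the limit of 0.1. Values at or below 0 were treated as missing. Of 10500 probes, 10339 with at least 3 values in each group were fitted with limma 3.58.1 in R 4.3.3 (lmFit and eBayes, 20 arrays, 1 mean per group, 16 residual degrees of freedom), with Benjamini-Hochberg adjustment over all of them. The code of the fit was run on simulated data with large changes in a single group, which does not bear on the small differences given here. Genes were named from the platform annotation for 9378 probes with 1 symbol (8 probes had several and 1114 had none), and the probe with the highest mean log2 value stood for a gene. Members, lists and tests were chosen with earlier results of these data known. Values per array are given for members past 2-fold in a tissue comparison, for the highest and lowest member of each class and for members of isoform pairs, and in addition for Ndufa4 and Ndufc1. For this choice the assembly factors of complexes I and IV formed a single class, and those of complex II were counted with its subunits. The permutation tests of Ndufa4 and Ndufc1 and the count over bright probes were added after the data were seen. The number of arrays limits the precision. Replicate numbers did not pair the arrays: correlations of same-numbered arrays ran from -0.078 to 0.054.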

Additional observations from a re-analysis of the deposited data

Results flagged for a closer look

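Each of the 24 members given array by array was checked in its 4 groups for 1 array far from the other 4, and 13 of 96 groups held such an array. Chance alone gives about 1 in 20.

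Cortex replicate 5 of site 2 was the distant array for 5 members. Among all members this array was the lowest of its group for most, such as Atp5c1 (17.2, others 23.3 to 25.03) and Atp5j2 (24.1, others 32.7 to 35.8). For Cox4i1, Cox6a2, Cox7a2 and Ndufs4 it was the highest. It was low for Atp5g2 (21.9, others 28.4 to 29.03), Ndufs7 (9.61, others 14.4 to 16.3), Sdhb (32.8, others 37.98 to 39.4) and Uqcrfs1 (24.5, others 29.5 to 30.9), and high for Cox6a2 (3.92, others 1.23 to 1.36). Cortex replicate 4 of site 2 was high for Cox8b (0.335, others 0.0604 to 0.0948). Retina replicate 2 of site 2 was low for Cox6a2 (0.783, others 1.02 to 1.06), Cox7a2l (27.8, others 29.5 to 30.2) and Uqcrfs1 (24.9, others 26.6 to 27.2). Retina replicate 3 of site 2 was low for Atp5g1 (10.95, others 12.4 to 12.8), and retina replicate 5 of site 2 was high for Sdha (77.5, others 64.0 to 66.9). At the first site cortex replicate 2 was low for Atp5b (19.98, others 23.8 to 25.2) and for Uqcrfs1 (22.4, others 27.5 to 28.9). What set these arrays apart was not tested.

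The retina minus cortex difference of Sdha was larger at site 2 than at the first site by 0.50 on the log2 scale (SE 0.125, limma adjusted p = 0.0298). This call was lost in 6 of 20 fits without 1 array, with adjusted p-values from 0.0525 to 0.0591, and in the fit with the replicate number as a block.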

How the results depend on the processing

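Quantile normalization moved the members lower at the first site from 9 to 17, and members past 2-fold between sites from 0 to 1 in retina and from 1 to 0 in cortex. Averaging the probes of a gene also gave 1 in retina. The members whose tissue difference differed between sites were 3 when dim values were raised to their 25th percentile, 0 with the replicate number as a block, and 1 otherwise. With the block the first site had 16 higher and 6 lower members and site 2 had 18 and 14, and the block changed no other count by over 1.5 times. Calls lost with the block were those of Sdha between sites (adjusted p = 0.157), of Cox6b1 at both sites (0.121 and 0.0979) and, at the first site, of Atp5pb (0.0679), Cox6c (0.106), Ndufaf1 (0.113), Ndufb9 (0.0918) and Ndufv1 (0.0575).

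Leaving out 1 array of the site compared gave 17 to 19 members higher at each site, 6 to 10 lower at the first site and 13 to 23 lower at site 2 (23 without cortex replicate 5). Leaving out 1 array of the other site, which changes the shared error estimate, gave 19 to 22 higher and 7 to 12 lower at the first site (22 and 12 if cortex replicate 5 of site 2 is dropped) and 18 to 19 higher and 15 to 16 lower at site 2. Without 1 array of the groups compared there were 3 to 4 and 5 to 5 members higher at 2-fold, 0 to 5 that differed between sites, and 0 to 1 past 2-fold between sites in either tissue. The medians ran from 0.011 to 0.063 at the first site and from -0.037 to 0.077 at site 2. At the first site some differences near 0 that passed no test changed sign. After quantile normalization these were Atp5g1 (-0.051), Atp5g2 (-0.026), Cox4i1 (-0.015), Cyct (0.051) and Uqcrb (-0.032). Without 1 array they were Atp5g1 (range -0.064 to 0.078), Cyct (-0.16 to 0.19), Cox6a1 (-0.081 to 0.027) and Uqcrb (-0.0097 to 0.12). The cause was not tested. The fit of 2 groups alone could not give the difference between sites. No detection flag was used here, so dim values such as those of Cyct, Myog, Ndufab1 and cortex Cox8b and Cox4i2 may hold little signal.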

Other observations

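Ndufa3, an accessory subunit of complex I, was the member with 2 probes. Its brighter probe was at -0.11 and 0.099 (retina minus cortex, log2) at the first site and site 2 and did not pass at either. The dimmer probe, with group means of 0.358 to 0.654, was lower in retina, at -0.69, at the first site (limma adjusted p = 5.23e-04) and was at -0.10 at site 2 (adjusted p = 0.591). The probes therefore gave different calls at the first site.

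Markers of other tissues were read as well. Hba-a1, the alpha globin of red cells, was lower in retina (-1.86 and -2.41), and the other tested red cell marker, Epb42, passed at neither site. Of 4 tested testis markers 1 was higher (Ldhc, 1.34 and 1.06) and 1 lower (Odf1, -1.04 and -1.34) at 2-fold. Of all probes 11.9% and 11.1% were higher and 13.0% and 13.5% lower at 2-fold. These markers were dim: their summed intensity at the first site was 0.585 to 0.648 in retina and 0.582 to 0.931 in cortex. At site 2 it was 0.656 to 1.03 and 0.749 to 3.80. Of their 80 values 1 was at or below 0.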
